A study of Homo sapiens with 18 samples.

Results

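The interferon regulatory factor genes IRF1, IRF2, IRF3, IRF5 and IRF7 were followed across the 6 conditions of an RNA-seq experiment on HCC1937 breast cancer cells. They were chosen by name, as the rows of the deposited count table whose Ensembl identifier maps to these symbols, and they make up 5 of the 35044 genes in that table. Of the 5, 4 had enough reads to be tested. IRF7 had very few counts, 53 over all 18 libraries, and is described mainly by its counts.

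Interferon regulatory factors are transcription factors that recognise GAAA-containing elements, the interferon-stimulated response elements (ISRE), through a conserved DNA-binding domain. IRF3 is present in most cells in an inactive form and is switched on by phosphorylation after the nucleic acid sensors signal through the adaptors MAVS, STING1 or TICAM1 to the kinases TBK1 and IKBKE, so its activity is not set by its transcript level alone. IRF5 and IRF7 act downstream of the adaptor MYD88 and of the same sensors, IRF1 is itself an interferon-induced gene that responds to interferon signalling and NF-kB, and IRF2 binds the same elements as IRF1 and often opposes it.

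The experiment compared HCC1937-EV with HCC1937-OE-BRCA1. By the study's description the first is the BRCA1-mutated breast cancer cell line carrying an empty vector, and the second the same line overexpressing wild-type BRCA1. Each was sequenced untreated (0 h) and after 12 h and 24 h with the PARP inhibitor (PARPi) olaparib at 10 µmol/L. There were 3 libraries per condition and 18 in all. The question behind it was whether the innate immune response to a PARPi depends on BRCA1. The groups follow the cell line and time in the sample titles: the labels also list olaparib as treatment for the 0 h libraries and give HCC1937-EV the genotype WT, which the study's text does not. That both lines share the HCC1937 background is the study's statement, was not tested here and stands beside the marker differences given below. The sources used here do not say whether libraries came from separate cultures or whether a line was a clone. The p-values therefore measure the spread between libraries alone, which may be technical. Each library holds RNA of many cells, so fewer cells with a transcript and less of it per cell cannot be told apart.

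Libraries held between 15081973 and 17571922 counted reads. The transcript of BRCA1 itself was at 118 ± 7.70 CPM (TMM-scaled library totals, SD, n = 3) in untreated HCC1937-EV and at 138 ± 24.0 CPM (SD, n = 3) in untreated HCC1937-OE-BRCA1, a log2 difference of 0.24 that was not called (adjusted p = 0.0654 by edgeR's quasi-likelihood test, threshold 0.05). At 12 h it was 0.16 (adjusted p = 0.197), and at 24 h, with 94.5 ± 4.47 against 161 ± 7.07 CPM, it was 0.77 and was called (adjusted p = 3.17e-06). The lines differed far beyond BRCA1. Pearson's r of log2 CPM was 0.728 to 0.753 between libraries of different lines and 0.976 to 0.990 between conditions of the same line. Of 8 epithelial markers, all 8 averaged at least 1 CPM in HCC1937-OE-BRCA1, but 4 did in HCC1937-EV, where EPCAM, KRT5, KRT14 and CDH1 were at or near 0 (at most 0.0617, 0.124, 0.124 and 1.20 CPM) while KRT8, KRT18 and EGFR were abundant. The summed level of 4 fibroblast markers was 97.0 to 153 CPM in HCC1937-EV and 6.90 to 12.3 CPM in HCC1937-OE-BRCA1, most of it COL1A1. The summed level of 4 leukocyte markers was 33.7 to 86.8 CPM in HCC1937-OE-BRCA1, nearly all of it CD14, and 1.15 to 2.59 CPM in HCC1937-EV, with the pan-leukocyte gene PTPRC at no more than 2.22 CPM in either. That of 3 endothelial markers was 17.2 to 27.0 CPM against 1.11 to 2.89 CPM. Every difference between the lines below therefore stands beside a difference of cell identity markers, and the part of BRCA1 in it cannot be told apart from other differences between the lines.

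On GRCh38, with gene spans from GENCODE release 29, IRF1 (ENSG00000125347) lies on the minus strand of chromosome 5 from 132481609 to 132490798 and IRF2 (ENSG00000168310) on the minus strand of chromosome 4 from 184387713 to 184474580. IRF3 (ENSG00000126456) lies on the minus strand of chromosome 19 from 49659569 to 49665875, IRF5 (ENSG00000128604) on the plus strand of chromosome 7 from 128937612 to 128950035 and IRF7 (ENSG00000185507) on the minus strand of chromosome 11 from 612553 to 615999. All 5 are protein-coding genes. Exons of the antisense RNA gene IRF1-AS1 cover 22.0% of the exonic length of IRF1, and exons of BCL2L12 on the other strand cover 19.3% of that of IRF3. No annotated exon of another gene overlaps IRF2, IRF5 or IRF7. The sources used here do not say whether reads were counted by strand, so reads of IRF1 and IRF1-AS1, or of IRF3 and BCL2L12, in the shared stretches cannot be told apart.

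The RefSeq promoter table for GRCh38.p14 held windows for IRF1 and IRF5. The IRF1 stretch below is shown because IRF1 was the member that rose most with olaparib and because its promoter carries elements through which interferon signalling and NF-kB are known to act on it. It covers chr5:132490799-132491023 on the minus strand, upstream of both the RefSeq start and the GENCODE span, with 2 matches in capitals.
IRF1: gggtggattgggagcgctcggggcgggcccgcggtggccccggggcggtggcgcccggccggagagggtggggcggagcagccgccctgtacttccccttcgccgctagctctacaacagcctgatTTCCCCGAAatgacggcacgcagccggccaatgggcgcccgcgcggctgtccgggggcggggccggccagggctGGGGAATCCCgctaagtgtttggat
The first match is to the interferon-responsive gamma-activated sequence (GAS, TTCNNNGAA) and the second to the kB consensus of NF-kB, which do not overlap. Searched on both strands, 7.66% of the 35116 promoter windows of 300 bases held a GAS and 11.3% a kB match. The ISRE pattern, GAAA and again GAAA with any 2 bases between them, was found in 3.57% of windows and not in that of IRF1. None of the 4 windows of IRF5 held any of these 3 patterns. A match describes the letters and is no evidence of binding.

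Among 12 textbook targets of IRF3 and IRF7, 9 had promoter windows, and the ISRE pattern stood in at least 1 window of 8 of them. It stood in windows of 8 of 10 textbook targets of IRF1 with windows. Stretches from 3 of these genes, each on the gene's own strand and upstream of its RefSeq start, show the element that the family reads, with the ISRE match in capitals on either strand: IFIT1 (chr10:89392497-89392526, plus strand), ISG15 (chr1:1013380-1013409, plus strand) and IFNL1 (chr19:39296183-39296212, plus strand).
IFIT1: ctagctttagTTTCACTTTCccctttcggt
ISG15: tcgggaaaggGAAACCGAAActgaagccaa
IFNL1: gttctaaggaTTTCAGTTTCtctttccttc
IFIT1, which restrains translation of viral RNA, ISG15, a ubiquitin-like modifier, and IFNL1, a type III interferon, are taken up again with the other targets.

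Per kilobase of coding-transcript exons, IRF3 was the most abundant member in every condition. In untreated HCC1937-OE-BRCA1 it stood at 67.8 ± 16.8 CPM per kilobase, followed by IRF2 at 13.5 ± 0.281, IRF1 at 11.1 ± 0.525, IRF5 at 2.50 ± 0.738 and IRF7 at 0.116 ± 0.0569 (SD, n = 3). In untreated HCC1937-EV the order was IRF3 at 31.7 ± 1.32, IRF2 at 6.77 ± 0.223, IRF1 at 2.24 ± 0.204 and IRF7 at 0.0865 ± 0.0763 CPM per kilobase, with IRF5 lowest at 0.00616 ± 0.0107. After olaparib IRF1 drew level with IRF2 in HCC1937-OE-BRCA1, at 17.5 ± 1.04 against 17.0 ± 0.544 CPM per kilobase at 12 h and 20.3 ± 1.06 against 19.5 ± 0.953 at 24 h, a gap within the SD of either gene.

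**Figure D1:**
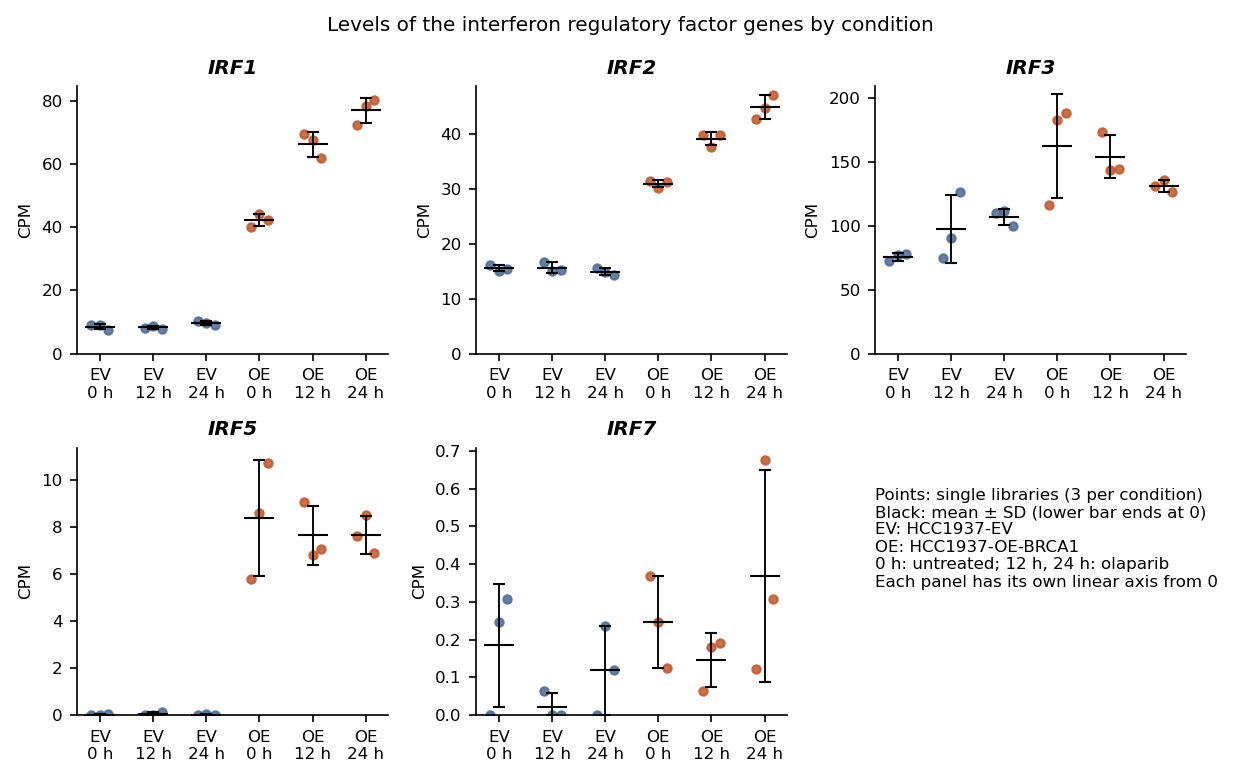
Level of each member in CPM (vertical axis, linear, own scale per gene) in the 6 conditions (horizontal axis), with points for single libraries and black marks for mean ± SD of 3. IRF1 and IRF2 stepped up with time in HCC1937-OE-BRCA1, IRF5 was read almost only in that line, IRF3 spread widely between libraries of 1 condition, and no IRF7 library exceeded 11 reads.

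IRF1, the interferon-induced activator of antigen-presentation and growth-restraint genes, was low in HCC1937-EV and several times higher in HCC1937-OE-BRCA1. Without treatment HCC1937-EV held 8.94, 8.90 and 7.59 CPM and HCC1937-OE-BRCA1 40.1, 44.1 and 42.4 CPM. At 12 h the lines stood at 8.20, 8.88 and 7.88 CPM and at 69.4, 67.7 and 61.9 CPM. At 24 h they stood at 10.4, 9.73 and 9.11 CPM and at 72.6, 78.5 and 80.2 CPM. The lowest HCC1937-OE-BRCA1 library thus lay far above the highest HCC1937-EV library at each time. The log2 fold change between the lines was 2.32 (95% interval 2.09 to 2.54, adjusted p = 6.14e-14) untreated, 2.99 (2.76 to 3.23, adjusted p = 1.08e-15) at 12 h and 2.98 (2.76 to 3.21, adjusted p = 8.48e-16) at 24 h, all from edgeR's quasi-likelihood F test and adjusted by Benjamini-Hochberg over the 18335 genes tested.

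With olaparib, IRF1 rose in HCC1937-OE-BRCA1, with log2 fold changes of 0.65 at 12 h (standard error 0.099, adjusted p = 0.000367) and 0.87 at 24 h (standard error 0.099, adjusted p = 7.38e-06). No library at 12 h or 24 h overlapped with an untreated one, and both calls held in all 6 fits that left out a library. The step from 12 h to 24 h was 0.22 (95% interval 0.01 to 0.42) and was not called (adjusted p = 0.257), although the 3 libraries at 24 h all lay above those at 12 h. In HCC1937-EV the log2 fold change was -0.03 at 12 h (95% interval -0.27 to 0.21, adjusted p = 0.985) and 0.20 at 24 h (-0.04 to 0.44, adjusted p = 0.241), so a rise there was not called, although the 3 libraries at 24 h all lay above the untreated ones. The antisense gene IRF1-AS1 went from 8.87 ± 0.655 to 16.2 ± 0.925 and 15.4 ± 0.511 CPM in HCC1937-OE-BRCA1 (log2 fold changes 0.87, adjusted p = 0.00592, and 0.80, adjusted p = 0.00648) and from 2.68 ± 0.0856 to 1.40 ± 0.448 and 1.74 ± 0.627 CPM in HCC1937-EV. Its counts, 2244 over the 18 libraries, were fewer than the 10298 of IRF1, and its part in the rise of IRF1 was not tested.

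IRF2, the member that often competes with IRF1, followed the same pattern in smaller steps. Untreated libraries held 16.2, 15.1 and 15.5 CPM in HCC1937-EV and 31.5, 30.2 and 31.2 CPM in HCC1937-OE-BRCA1. At 12 h the values were 16.8, 15.0 and 15.3 CPM and 40.0, 37.8 and 40.0 CPM, and at 24 h 15.6, 15.0 and 14.3 CPM and 42.8, 44.8 and 47.2 CPM. The conditions of HCC1937-EV overlapped with each other, and the 3 conditions of HCC1937-OE-BRCA1 were each apart. Between the lines the log2 fold change was 0.99 (standard error 0.098, adjusted p = 1.09e-08) untreated, 1.32 (adjusted p = 1.04e-10) at 12 h and 1.59 (adjusted p = 4.85e-12) at 24 h. Within HCC1937-OE-BRCA1 the rise was called at 24 h, with 0.54 (standard error 0.094, adjusted p = 0.00102) and in each fit with 1 library left out. At 12 h the value was 0.34 (95% interval 0.14 to 0.54) and missed the threshold (adjusted p = 0.0645), whereas it passed with DESeq2's Wald test (adjusted p = 0.00839), with an offset for GC content and length (0.00643) and among genes with at least 10 counts in every library (0.0400). In HCC1937-EV the values were 0.01 (95% interval -0.20 to 0.22, adjusted p = 1) at 12 h and -0.06 (-0.27 to 0.15, adjusted p = 0.734) at 24 h. IRF2-DT, a non-coding RNA gene that starts 222 bases upstream of IRF2 on the other strand, rose in HCC1937-OE-BRCA1 too, from 5.45 ± 1.36 to 9.42 ± 0.890 CPM at 12 h (adjusted p = 0.0386) and 8.94 ± 0.929 CPM at 24 h (adjusted p = 0.0320), though each call held in 1 of 6 fits with a library left out.

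**Figure D2:**
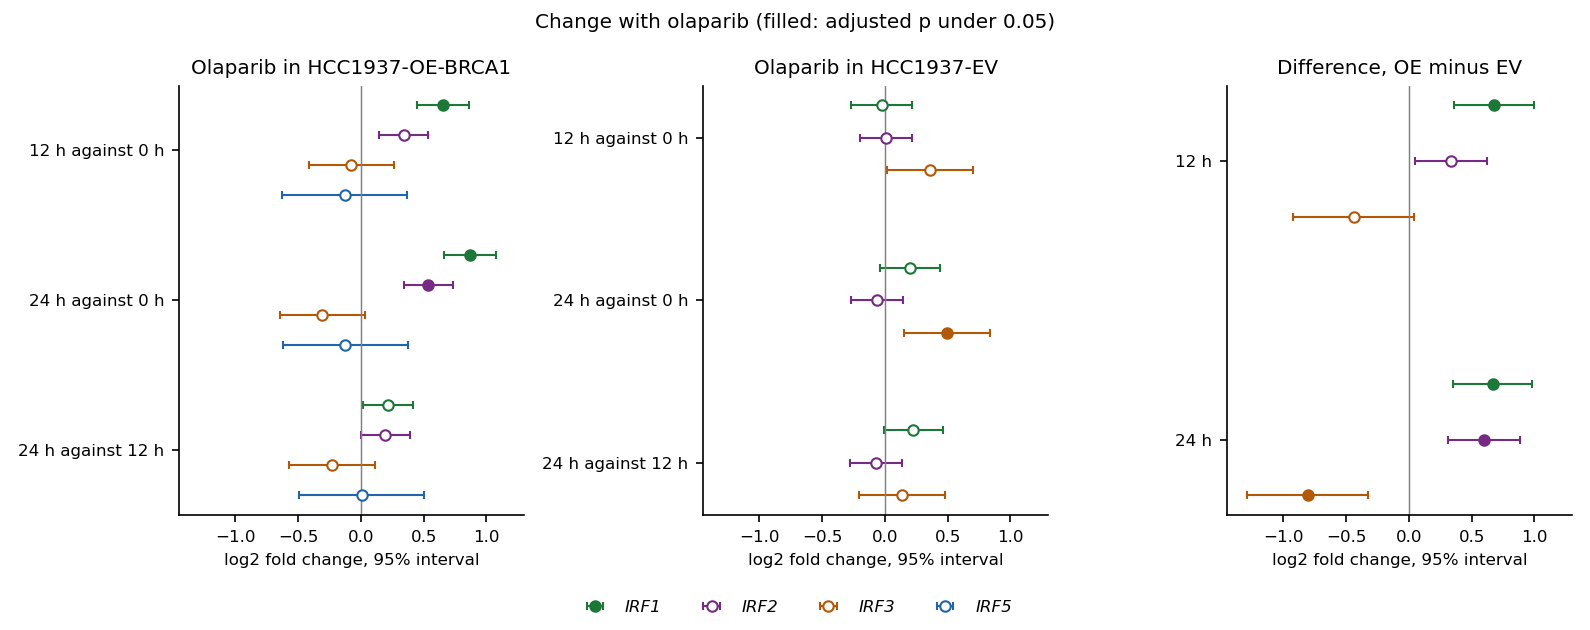
Log2 fold change with olaparib (horizontal axis) with 95% intervals for each member that has reads in the line, in HCC1937-OE-BRCA1, in HCC1937-EV and as the difference of the effects of the lines (OE minus EV), with filled points called at an adjusted p under 0.05. Against 0 h, IRF1 and IRF2 lie to the right of 0 in HCC1937-OE-BRCA1. In HCC1937-EV they lie near 0 but for IRF1 at 24 h (0.20, not called). From 12 h to 24 h IRF1 lies at 0.22 in HCC1937-OE-BRCA1 and 0.23 in HCC1937-EV, neither called. IRF3 lies to the right of 0 in HCC1937-EV and to the left in HCC1937-OE-BRCA1.

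IRF3, the factor that switches on the gene of interferon beta, was higher in HCC1937-OE-BRCA1 without treatment, but its libraries scattered. Untreated HCC1937-EV held 72.2, 77.1 and 78.2 CPM and untreated HCC1937-OE-BRCA1 116, 183 and 188 CPM, with 1 library of the latter well below the other two. At 12 h the values were 74.8, 90.8 and 127 CPM in HCC1937-EV and 173, 144 and 144 CPM in HCC1937-OE-BRCA1, and at 24 h 109.9, 112 and 99.9 CPM and 131, 136 and 126 CPM. The lines did not overlap at any time, though the distance shrank. The log2 fold change was 1.10 untreated (standard error 0.17, adjusted p = 4.80e-06), 0.66 at 12 h (standard error 0.16, adjusted p = 0.00120) and 0.29 at 24 h (95% interval -0.05 to 0.63, adjusted p = 0.114), the last of which was not called.

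With olaparib IRF3 was not called at either time in HCC1937-OE-BRCA1 with the filter on low counts, with -0.08 (95% interval -0.42 to 0.26, adjusted p = 0.929) at 12 h and -0.31 (-0.65 to 0.03, adjusted p = 0.261) at 24 h. Without the low untreated replicate 1 of that line the value at 24 h was -0.50 and was called (adjusted p = 0.0186), as was the value of -0.36 fitted without the filter (adjusted p = 0.0483). In HCC1937-EV it was 0.36 (0.02 to 0.70, adjusted p = 0.287) at 12 h and 0.50 (standard error 0.16, adjusted p = 0.0488) at 24 h. That last call was lost in all 6 fits with any 1 of the HCC1937-EV libraries at 0 h or 24 h left out, with values of 0.46 to 0.54, and under a minimum absolute log2 fold change of 0.5. BCL2L12, an apoptosis-related gene whose exons overlap those of IRF3, had a log2 fold change of 0.56 (adjusted p = 0.0251) at 24 h in HCC1937-EV and of -0.37 (adjusted p = 0.151) in HCC1937-OE-BRCA1.

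The scatter of IRF3 went along with a property of the libraries. Exons of IRF3 have a GC content of 61.0%, higher than in 87.9% of the genes tested, and libraries were not alike in the slant of their levels towards GC-rich genes. That slant was taken as Spearman's rho of GC content with the deviations of all genes from their line's mean, over 13564 genes in HCC1937-EV and 14818 in HCC1937-OE-BRCA1. It was -0.592, -0.208 and 0.651 in the HCC1937-EV libraries at 12 h that held 74.8, 90.8 and 127 CPM of IRF3. In untreated HCC1937-OE-BRCA1 it was -0.585, 0.295 and 0.550 in the libraries with 116, 183 and 188 CPM. All 3 untreated HCC1937-EV libraries had a rho below 0 and all 3 at 24 h a rho above 0, while the 3 HCC1937-OE-BRCA1 libraries at 24 h were below 0. In each line every library with a rho above 0 held more IRF3 than every library with a rho below 0. IRF1 and IRF2, with a GC content of 54.8% and 47.2%, showed an SD of at most 4.01 and 2.20 CPM within a condition, at means of 77.1 and 45.0 CPM. IRF5, with 60.0%, held 5.79, 8.56 and 10.7 CPM in the same untreated HCC1937-OE-BRCA1 libraries, in the order of their rho. At 24 h its libraries did not run in that order. The part of this trend in the IRF3 values was not tested beyond the following fit. With each library's trend on GC content and length as an offset, the IRF3 value at 24 h was 0.17 (adjusted p = 0.170) in HCC1937-EV and -0.17 (adjusted p = 0.138) in HCC1937-OE-BRCA1, and neither was called. Under that offset the lines differed by 0.89 (adjusted p = 9.61e-10) untreated, 0.61 (adjusted p = 3.18e-07) at 12 h and 0.55 (adjusted p = 1.49e-06) at 24 h. Each library's trend was taken against the mean of its own line, so the offset cannot remove a GC trend between the lines. Whether such a trend adds to the difference of the lines was not tested.

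**Figure D3:**
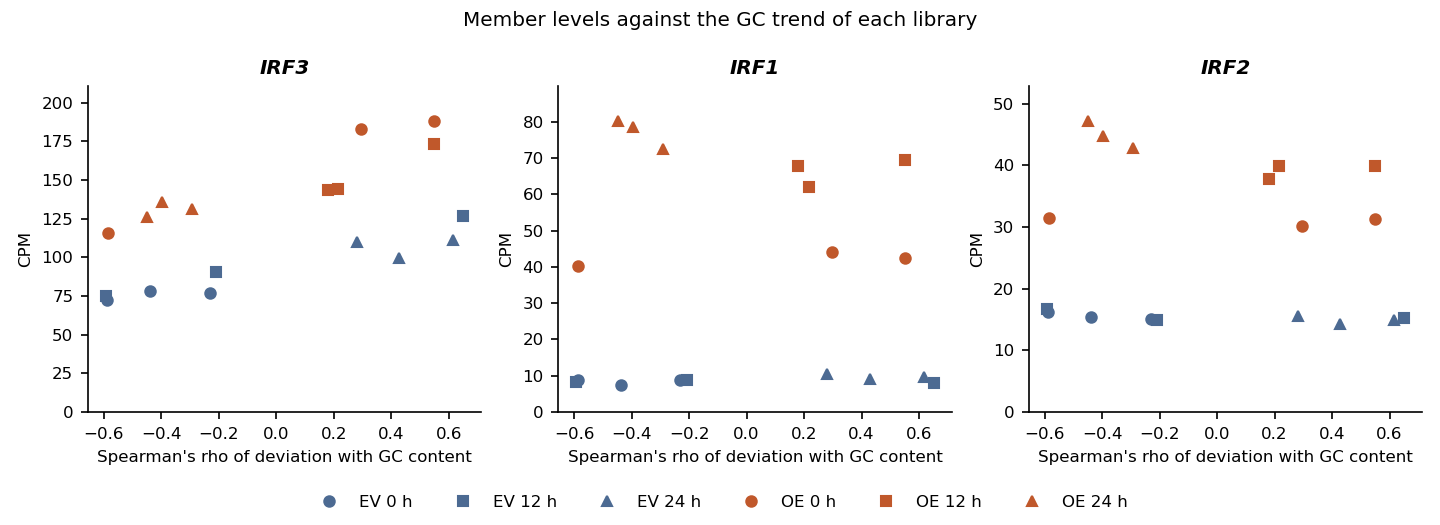
Level of IRF3, IRF1 and IRF2 in CPM (vertical axes, from 0) in each of the 18 libraries against Spearman's rho of the library's deviations with GC content (horizontal axis). Colour gives the line and shape the time. Within a line, the IRF3 libraries with a rho above 0 all lie higher than those below 0, and IRF1 and IRF2 separate by line and time.

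IRF5, which acts downstream of MYD88 and drives inflammatory cytokine genes, was read almost only in HCC1937-OE-BRCA1. The 9 HCC1937-EV libraries together held 4 counts, with 0, 0 and 1 untreated, 0, 0 and 2 at 12 h and 0, 1 and 0 at 24 h. The HCC1937-OE-BRCA1 libraries held 94, 139 and 170 counts untreated, 144, 112 and 111 at 12 h and 124, 138 and 112 at 24 h, and the groups did not overlap. The ratio of the 2 lines in CPM, from the summed counts, was 404 untreated (95% exact interval 72.1 to 16003), 177 at 12 h (48.5 to 1463) and 387 at 24 h (69.1 to 15333), with intervals for counting error alone. All 3 differences were called (highest adjusted p 3.98e-11), but IRF5 passed the filter on low counts only through the line where it is high. Within HCC1937-OE-BRCA1 the untreated libraries at 5.79, 8.56 and 10.7 CPM overlapped with those at 12 h (9.05, 6.77 and 7.06 CPM) and at 24 h (7.62, 8.47 and 6.87 CPM). The log2 fold change was -0.13 at 12 h (95% interval -0.63 to 0.37, adjusted p = 0.914) and -0.13 at 24 h (-0.62 to 0.37, adjusted p = 0.813), so no change was called, within an interval this wide.

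IRF7, the interferon-inducible member that amplifies interferon production, was close to absent. Its counts were 0, 4 and 5 in untreated HCC1937-EV, 1, 0 and 0 at 12 h and 0, 4 and 2 at 24 h, against 6, 4 and 2, then 1, 3 and 3, then 2, 11 and 5 in HCC1937-OE-BRCA1. No library was above 0.675 CPM, and 4 of the 18 held none, each of which allows up to 3 counts. Summed over 9 libraries each, 37 counts in HCC1937-OE-BRCA1 stood against 16 in HCC1937-EV, a ratio in CPM of 2.31 (95% exact interval 1.26 to 4.45, counting error alone), with 11 of the 37 in a single library at 24 h. The filter removed IRF7 from the test. Without the filter none of its 9 comparisons between groups was called by edgeR, and the lowest p among them, unadjusted, was that of HCC1937-EV at 12 h against 0 h (0.0401, adjusted p = 0.413). At this depth only a large change of IRF7 with olaparib could show. Its ratio in CPM to 0 h in HCC1937-OE-BRCA1 was 0.59 (95% exact interval 0.20 to 1.61) at 12 h and 1.48 (0.68 to 3.38) at 24 h. In HCC1937-EV it was 0.12 (0.0027 to 0.84) at 12 h, from 1 count against 9, and 0.64 (0.19 to 2.01) at 24 h. These intervals are for counting error alone.

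Taking the members as a family, the counts of calls stand beside those of all 18335 genes. Between the untreated lines IRF1, IRF2 and IRF3 were called higher in HCC1937-OE-BRCA1, beside IRF5, which was tested only because it is high there, against a background of 39.4% of genes higher and 33.3% lower. At 12 h the same 4 were called higher (38.8% of genes higher, 34.1% lower) and at 24 h 3, all but IRF3 (39.9% higher, 34% lower). With olaparib in HCC1937-OE-BRCA1, 1 of 4 was called higher and 0 lower at 12 h (IRF1), against 1.7% and 0.605% of genes. At 24 h 2 of 4 were called higher and 0 lower (IRF1 and IRF2), against 4.71% and 3.55%. Between 24 h and 12 h of that line edgeR and DESeq2's Wald test each called 0 of 4, against 1.65% of genes in either direction by edgeR, with IRF1 and IRF2 at an unadjusted p under 0.05. In HCC1937-EV IRF5 held 4 counts in all, so its lack of a call there says nothing and it is left out of the counts. Of the other 3, 0 were called in either direction at 12 h, beside 0.0273% of genes higher and 0.0164% lower. IRF3 had an unadjusted p under 0.05 there, and DESeq2's Wald test called 0 as well. At 24 h 1 of these 3, IRF3, was called higher and 0 lower, against 8.62% and 5.12%. Between 24 h and 12 h both tools called 0 of the 3, against 0.18% of genes by edgeR, with 0 at an unadjusted p under 0.05. Since so many genes differed between the lines, these calls are no mark of the family. The comparisons within a line share its untreated libraries, so they are not independent of each other.

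The effects of olaparib differed between the lines for 3 members, by an interaction term in the same edgeR model. The effect on IRF1 was larger in HCC1937-OE-BRCA1 by a log2 value of 0.68 at 12 h (95% interval 0.36 to 0.995, adjusted p = 0.0464) and 0.67 at 24 h (0.35 to 0.98, adjusted p = 0.00533). The difference at 24 h was called with each of the 12 libraries concerned left out, whereas that at 12 h was called in 2 of 12 such fits, without untreated replicate 3 of HCC1937-EV or replicate 1 of HCC1937-OE-BRCA1, with values of 0.64 to 0.76 over the 12. For IRF2 the difference was 0.33 (0.05 to 0.62, adjusted p = 0.275) at 12 h and 0.60 (0.31 to 0.88, adjusted p = 0.00596) at 24 h, the latter called in 12 of 12 but not without the filter on low counts (0.54, adjusted p = 0.0829). For IRF3 it ran the other way, -0.44 (-0.92 to 0.04, adjusted p = 0.384) at 12 h and -0.81 (-1.29 to -0.32, adjusted p = 0.0196) at 24 h, called in 8 of 12. Its call was lost without untreated HCC1937-EV replicate 1 (-0.77, adjusted p = 0.0538), untreated HCC1937-OE-BRCA1 replicate 2 (-0.71, adjusted p = 0.0601) or 3 (-0.69, adjusted p = 0.0596), and 24 h HCC1937-OE-BRCA1 replicate 3 (-0.78, adjusted p = 0.0529). With the offset for GC content and length the IRF3 difference at 24 h was -0.34 (adjusted p = 0.0357), and those of IRF1 and IRF2 were 0.69 (adjusted p = 0.00193) and 0.53 (adjusted p = 0.00199). Thus of IRF1, IRF2 and IRF3, 1 was called at 12 h and 3 at 24 h, while 0.518% and 19.4% of genes were called in either direction. IRF5, hardly read in HCC1937-EV, could not be judged, with a 95% interval of -5.87 to 5.71 at 24 h.

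Outside the 5 members, few reads came from IRF9, IRF4 and IRF8. IRF9, the DNA-binding subunit of the ISGF3 complex, stood at 0.289 ± 0.0348 CPM in untreated HCC1937-EV and 1.07 ± 0.357 CPM in untreated HCC1937-OE-BRCA1 (adjusted p = 0.00241), passed the filter only through the latter line, and 48.4% of its exonic length is shared with another gene of the same strand. The lymphoid and myeloid members IRF4 and IRF8 held 18 and 2 counts in all and were not tested.

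Among 16 listed adaptors and kinases upstream of the family, the largest contrast was in MYD88, the adaptor that feeds IRF5 and IRF7, at 0.268 ± 0.0945 CPM in untreated HCC1937-EV and 23.4 ± 3.32 CPM in untreated HCC1937-OE-BRCA1 (log2 fold change 6.41, adjusted p = 1.87e-15). It passed the filter on low counts only through the latter line. The adaptors for IRF3, MAVS, STING1 and TICAM1, were not called between the untreated lines, with log2 fold changes of 0.22 for MAVS and 0.12 for STING1 and an interval of -0.24 to 0.24 for TICAM1. MAVS (0.26, adjusted p = 0.0231) and STING1 (0.43, adjusted p = 0.0266) were called higher in HCC1937-OE-BRCA1 at 12 h and TICAM1 lower at 24 h (-0.42, adjusted p = 0.00248). Of the 16, 6 were called higher and 6 lower in the untreated HCC1937-OE-BRCA1 line, TBK1, which phosphorylates IRF3, among the lower (-0.60, adjusted p = 0.00247) and IKBKE among the higher (0.64, adjusted p = 7.86e-05). These shares are near those of all genes, 33.3% lower and 39.4% higher, and at 24 h neither TBK1 nor IKBKE was called between the lines. With olaparib in HCC1937-OE-BRCA1 MYD88 was called higher at 12 h (0.71, adjusted p = 0.00563), and at 24 h STING1 was higher (0.70, adjusted p = 0.0122) while IRAK1 (-0.44, adjusted p = 0.0189) and TRAF3 (-0.37, adjusted p = 0.0239) were lower. With a library left out these held in 6, 5, 1 and 3 of 6 fits. At 12 h 1 of 16 was thus called higher and 0 lower, against 1.7% and 0.605% of all genes. At 24 h 1 was higher and 2 lower, against 4.71% and 3.55%. In HCC1937-EV 0 of 16 were called at either time. Of all genes, 0.0273% were called higher and 0.0164% lower there at 12 h, so 0 of 16 says nothing about the list. At 24 h 8.62% were higher and 5.12% lower. MYD88, with 13 to 16 counts per condition there, could show only a large change. The median log2 fold change of the 16 was 0.08 at 12 h and 0.05 at 24 h in HCC1937-OE-BRCA1, beside 0.00 and 0.02 over all genes.

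Among 11 partners and regulators of the proteins, 10 were tested. TRIM21, a ubiquitin ligase that acts on IRF3 and other members, rose in HCC1937-OE-BRCA1 from 10.9 ± 0.597 to 19.5 ± 2.61 CPM at 12 h (adjusted p = 0.00129) and 20.4 ± 3.32 CPM at 24 h (adjusted p = 0.000341), where BATF, a partner of IRF4 and IRF8, fell from 11.5 ± 2.12 to 5.73 ± 0.908 CPM (adjusted p = 0.00672). RBCK1, which promotes the degradation of IRF3, was the other called at 12 h (0.43, adjusted p = 0.0386), in 2 of 6 fits with a library left out. In HCC1937-EV the corepressors IRF2BP1 (0.83, adjusted p = 0.00666) and IRF2BPL (0.43, adjusted p = 0.0156) of IRF2 and RBCK1 (0.43, adjusted p = 0.0186) were called higher at 24 h. IRF2BP1 scattered at 12 h in that line, with 52.4 ± 16.2 CPM, as IRF3 did. With a library left out these held in 6, 3 and 2 of 6 fits. Of the 10 tested, 2 were called higher in HCC1937-OE-BRCA1 at 12 h, against 1.7% of all genes. At 24 h 1 was higher and 1 lower there, against 4.71% and 3.55%. In HCC1937-EV 0 were called at 12 h, beside 0.0273% of genes higher and 0.0164% lower. At 24 h 4 were higher and 0 lower there, against 8.62% and 5.12%.

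Among factors that induce IRF1 and IRF7, STAT2, a subunit of the ISGF3 complex, rose in HCC1937-OE-BRCA1 from 66.7 ± 3.45 to 168 ± 1.96 CPM at 12 h (log2 fold change 1.33, adjusted p = 2.75e-09) and stood at 162 ± 7.26 CPM at 24 h (1.28, adjusted p = 2.77e-09). JAK2, a kinase of interferon receptors, was called higher at 24 h (0.87, adjusted p = 0.0126), in 4 of 6 fits with a library left out. In HCC1937-EV STAT2 was at 38.7 ± 3.27, 39.4 ± 0.713 and 41.8 ± 0.518 CPM at 0 h, 12 h and 24 h, with no call. There TYK2 was higher (0.43, adjusted p = 0.0180) and JAK1 lower (-0.34, adjusted p = 0.0305) at 24 h, in 3 and 1 of 6 such fits. These were 1 of 8 listed genes in each direction, beside 8.62% of all genes higher and 5.12% lower. In HCC1937-OE-BRCA1 2 of 8 were called higher at 12 h and 3 at 24 h, 0 lower, against 1.7% and 4.71% of all genes higher.

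Targets of IRF3 and IRF7 rose together in HCC1937-OE-BRCA1: 9 of 12 were called higher at 12 h and 11 at 24 h, all but CCL5, and 0 lower, against 1.7% and 4.71% of all genes called higher, with a median log2 fold change of 1.92 and 1.93 beside 0.00 and 0.02 over all genes. These 12 were chosen from textbook knowledge with earlier results of the same libraries known. IFNB1, IFNL1, IFNL2, IFNL3, RSAD2 and CXCL10 held at most 3 counts in any HCC1937-EV condition and CCL5 at most 32. All of these passed the filter on low counts only through HCC1937-OE-BRCA1. In that line IFNB1, IFNL2 and IFNL3 held 8, 14 and 26 counts untreated and passed only through its treated libraries. Their calls, IFNL3 at 12 h and all 3 at 24 h, are therefore no support for a rise of the list. The other targets called, the same ones at both times, were CXCL10, IFIT1, IFIT2, IFIT3, IFNL1, ISG15, OASL and RSAD2. IFIT2 went from 37.6 ± 4.70 to 149 ± 7.33 and 208 ± 8.12 CPM, IFIT3 from 65.8 ± 7.13 to 221 ± 18.6 and 283 ± 7.33 CPM, and RSAD2 from 53.2 ± 3.69 to 250.2 ± 9.35 and 232 ± 15.3 CPM. IFNL1 went from 2.01 ± 0.397 to 12.8 ± 1.77 and 14.7 ± 1.95 CPM, and IFNB1, the interferon beta gene, was at 0.166 ± 0.0743, 0.644 ± 0.0438 and 0.778 ± 0.284 CPM, a rise called at 24 h (adjusted p = 0.0286) but in 0 of 6 fits with a library left out. CXCL10, a chemokine, peaked at 12 h with 41.9 ± 3.11 CPM and was lower at 24 h with 14.3 ± 2.96 CPM (adjusted p = 0.000855). In HCC1937-EV 0 of 12 were called at 12 h and 5 at 24 h, IFIT1, IFIT2, IFIT3, ISG15 and OASL, all higher, against 0.0273% and 8.62% of all genes called higher. The rest of the 12, little read in HCC1937-EV, were tested only through the other line, so these counts rest on the 5. OASL, an RNA sensor cofactor, had the largest of these changes, from 7.20 ± 0.484 to 21.3 ± 0.522 CPM (1.56, adjusted p = 3.33e-07), and the difference of its effect between the lines at 24 h was -0.01 (95% interval -0.31 to 0.28, adjusted p = 1), against 0.88 (adjusted p = 0.00962) at 12 h. At 24 h 3 of these 5 rose more in HCC1937-OE-BRCA1, IFIT1 by 0.93 (adjusted p = 0.00444), IFIT2 by 1.31 (adjusted p = 0.000136) and IFIT3 by 1.39 (adjusted p = 0.00015), beside 19.4% of all genes called in either direction.

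**Figure D4:**
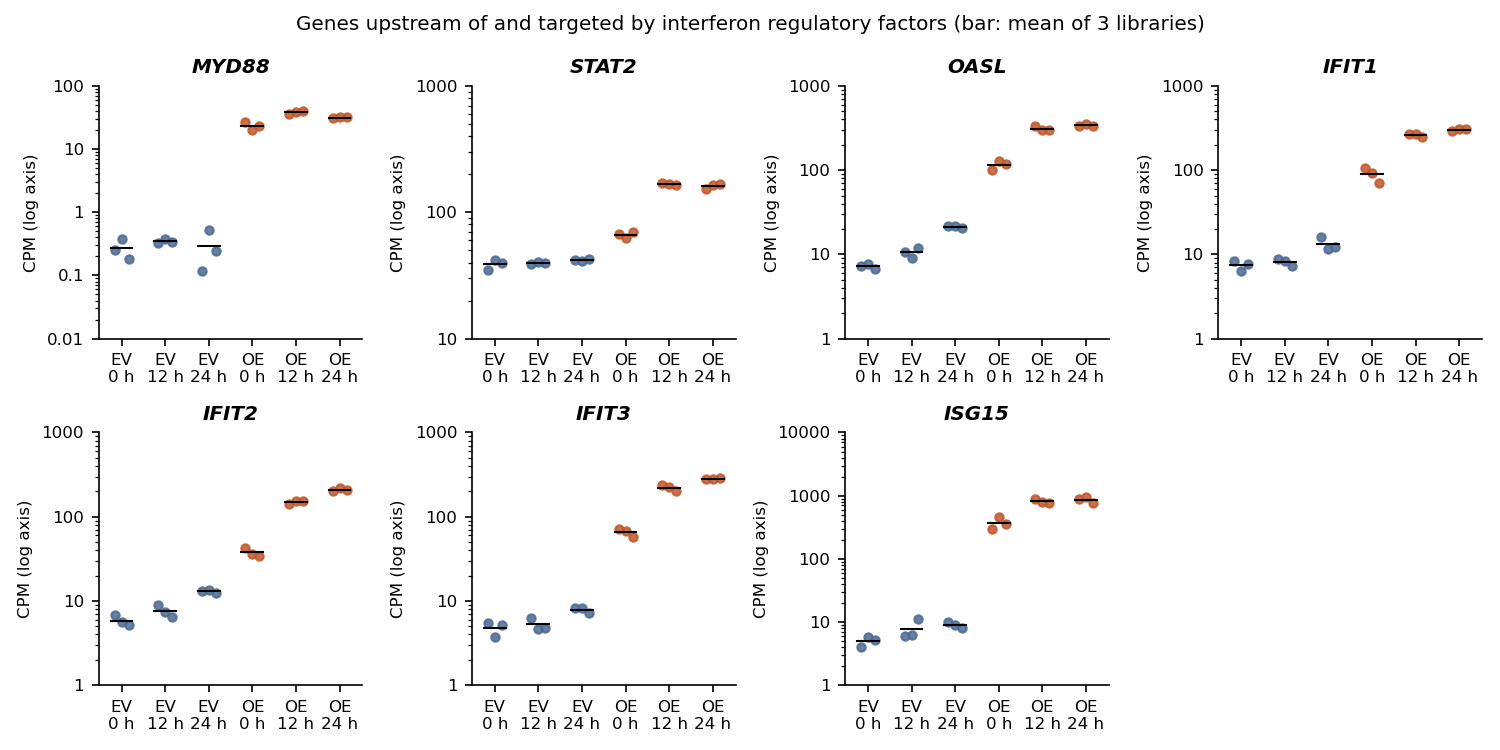
Level in CPM (vertical axes, logarithmic) of the adaptor MYD88, the inducer STAT2 and 5 targets of IRF3 and IRF7 in the 6 conditions (horizontal axes), with points for single libraries and bars for the mean of 3. The targets stand higher in every HCC1937-OE-BRCA1 library than in any HCC1937-EV library, and step up by 12 h in the former. In HCC1937-EV the OASL and ISG15 libraries at 12 h already lie above the untreated ones, and at 24 h those of all 5 targets do.

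Targets of IRF1 moved less uniformly. Of 17 listed, 16 were tested and 6 were called higher in HCC1937-OE-BRCA1 at each time, 0 lower, against 1.7% and 4.71% of all genes, and their median log2 fold changes were 0.50 at 12 h and 0.36 at 24 h. CIITA and NLRC5, which control genes of antigen presentation, were called at both times, CIITA going from 2.96 ± 0.615 to 5.36 ± 0.411 and 5.65 ± 0.898 CPM (called in 1 and 5 of 6 fits with a library left out) and NLRC5 from 99.5 ± 8.90 to 186 ± 1.07 and 157 ± 5.11 CPM. The guanylate-binding protein genes GBP1 and GBP2 rose at 12 h, to 139 ± 5.65 from 69.2 ± 10.9 CPM and to 29.5 ± 1.98 from 16.6 ± 1.96 CPM, and were back at 72.8 ± 2.95 and 16.8 ± 0.750 CPM at 24 h, while IRF1 itself was highest then. The fall from 12 h to 24 h was called for both, for GBP1 in 6 of 6 fits with a library left out and for GBP2 in 1 of 6. The immunoproteasome gene PSMB8 scattered from 13.7 to 52.4 CPM among the HCC1937-OE-BRCA1 libraries at 24 h and showed no called change. In HCC1937-EV 2 of 16 were called at 24 h, BST2 and IL15, both higher, in 2 and 0 of 6 fits with a library left out, near the 8.62% of all genes called higher there. GBP1 and GBP2, with at most 14 and 2 counts in any HCC1937-EV condition, passed the filter on low counts only through HCC1937-OE-BRCA1.

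Genes whose log2 CPM followed a member most closely over the 18 libraries were ranked by Pearson's r, as a description over libraries that share their conditions. With the mean of each line subtracted, so that the contrast of the lines no longer counts, IRF1 was followed most closely by IFIT2 (r = 0.94), IFIT3 (0.93) and APOL2 (0.93). IRF2 was followed by FZD4 (0.97), HERC5 (0.96) and TSPYL5 (0.94). IRF3 was followed by POLR2E (0.98), SCAF1 (0.98) and WDR18 (0.98), and IRF5 by TIMM22 (0.86), MED15 (0.85) and IGSF8 (0.83). Without that step the closest genes were SMTNL1 for IRF1 (0.996), TSPYL5 for IRF2 (0.995), SCAF1 for IRF3 (0.991) and RHBDF1 for IRF5 (0.997). Among members, IRF1 and IRF2 had an r of 0.85 after the line means were subtracted, IRF3 and IRF5 one of 0.66 and IRF1 and IRF3 one of -0.12. With at most 2 counts in any HCC1937-EV library, IRF5 is near the floor there, so its r values rest mainly on HCC1937-OE-BRCA1. The part of the libraries' GC trend in the r values of IRF3 and IRF5, both GC-rich (61.0% and 60.0%), was not tested.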

How the data were processed

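RNA-seq was run on 18 libraries of HCC1937-EV and HCC1937-OE-BRCA1. The authors deposited raw read counts per gene, and 18 single-library tables equalled the columns of the joint table. The submitters' processing notes name HISAT2, featureCounts, DESeq2 and GRCh38/hg38. Versions, annotation and strand setting are not given in the sources used here. Totals were 15081973 to 17571922 counts (median 16077299.5). Of the identifiers, 34966 (99.8%) had a symbol and 33888 (96.7%) were in GENCODE 29.

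Counts were scaled by TMM, filtered by filterByExpr and fitted with 1 mean per condition over all 18 libraries by edgeR 4.0.16 in R 4.3.3 (quasi-likelihood F test, Benjamini-Hochberg over 18335 genes, called at an adjusted p under 0.05, biological coefficient of variation 12.9%). Standard errors are the absolute log2 fold change over the square root of F. Levels are CPM with TMM-scaled totals, and per-kilobase lengths come from GENCODE coding transcripts. Ratios of few counts have exact 95% intervals for counting error only. Alternatives were DESeq2 1.42.0 (size factors, Wald test), no filter, at least 10 counts in every library, only the groups compared, a replicate block, an offset for GC content and length (mgcv 1.9.3), both together, an absolute log2 fold change over 0.5, and each library left out. The fit was tested on simulated data. Promoter sequences are from RefSeq on GRCh38.p14. The members and lists were chosen with earlier results of these data known. Genes named are the members, 6 lists of family and pathway genes, genes overlapping or neighbouring a member, and the 3 genes most correlated with each. Some list genes are not reported here.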

Additional observations from a re-analysis of the deposited data

Results flagged for a closer look

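Of the members, 3 were picked out because the effect of olaparib differed between the lines by the interaction term of the edgeR model. For IRF1 the log2 fold change was larger in HCC1937-OE-BRCA1 than in HCC1937-EV by 0.68 at 12 h (adjusted p = 0.0464) and by 0.67 at 24 h (adjusted p = 0.00533). For IRF2 the difference was 0.60 at 24 h (adjusted p = 0.00596), which was not called without the filter on low counts (0.54, adjusted p = 0.0829). For IRF3 it was -0.81 at 24 h (adjusted p = 0.0196), and -0.34 with an offset for GC content and length (adjusted p = 0.0357).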

How the results depend on the processing

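Over 11 comparisons, 87 counts of called members stayed within 1.5 times the main count under alternatives other than leaving out a library and 12 did not. At 12 h in HCC1937-OE-BRCA1, 2 members were called in place of 1 with DESeq2's Wald test, the GC content and length offset, at least 10 counts in every library, and the replicate block with that offset, IRF2 being added. Between 24 h and 12 h of that line 2 were called with only the groups compared (IRF1 and IRF3) and 1 with the replicate block and offset (IRF1), in place of 0. At 24 h in HCC1937-EV, 0 were called in place of 1 with an absolute log2 fold change over 0.5, with the offset, with the replicate block and offset, and in all fits with a library left out (0 to 0). The difference of the effects at 12 h had 0 in place of 1 without the filter, with only the groups compared and with the replicate block (IRF1 0.68, adjusted p = 0.0504), and 0 to 1 with a library left out. Single calls also changed where the count stayed within that bound: without the filter IRF3 at 24 h in HCC1937-OE-BRCA1 was called (-0.36, adjusted p = 0.0483) and the IRF2 difference at 24 h was not (0.54, adjusted p = 0.0829), and IRF3 between the lines at 24 h was called with only the groups compared (0.31, adjusted p = 0.00126), with the offset (0.55) and with the replicate block and offset (0.55). A minimum of 10 counts in every library left IRF5 untested. Otherwise the cause was not tested.

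Directions turned only for values that were not called. IRF5 between 24 h and 12 h in HCC1937-OE-BRCA1 was 0.0054 and became -0.0020 with DESeq2's Wald test, -0.0020 with DESeq2 size factors and -0.029 without the filter. IRF2 at 12 h in HCC1937-EV was 0.0087 and became -0.014 with the offset, -0.0042 with at least 10 counts and -0.014 with the replicate block and offset. With a library left out the ranges were -0.070 to 0.14 and -0.045 to 0.035 for these, -0.28 to 0.041 for IRF3 and -0.34 to 0.088 for IRF5 at 12 h in HCC1937-OE-BRCA1, -0.33 to 0.092 for IRF5 at 24 h, -0.11 to 0.0088 for IRF1 at 12 h in HCC1937-EV, and -0.022 to 0.38 for IRF3 between 24 h and 12 h in HCC1937-EV.

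The levels showed no pairing by replicate number: the correlations of same-numbered libraries ran from -0.227 to 0.147, in no comparison were all 3 over 0.1, and at most 2 of 3 libraries correlated best with their own number. Whether same-numbered libraries were handled together is not given in the sources used here, and these correlations cannot decide it. The replicate block changed no other count of called members. Depth limited IRF7 throughout and IRF5 in HCC1937-EV.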
